A study of Mus musculus with 4 samples.

Results

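The genes described here encode 9 subunits of the AP-1 family of transcription factors: Fos, Fosb, Fosl1 and Fosl2 of the Fos family, Jun, Junb and Jund of the Jun family, and the related factors Atf3 and Maff. They were taken by symbol from a table of 41543 gene symbols, and all 9 were among the 16112 genes counted often enough to be tested. The RNA came from mouse embryonic stem (ES) cells of the E14TG2a line, kept on gelatin in serum with the cytokine LIF. One group had 2 libraries labelled Control, with no further genotype given. The other group had 2 libraries labelled KAT6A KO, from E14TG2a cells edited with CRISPR/Cas9 to remove KAT6A, a histone acetyltransferase. These are called the libraries labelled KO 1 and KO 2 below. Whether a group's libraries stem from separate clones or cultures is not in the labels, so p-values and errors here cover the spread between these samples alone, and that spread may be technical. The 9 genes were selected on their fold changes between these groups, so those fold changes are given as a description, with no test.

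AP-1 is a dimer of basic leucine zipper proteins. Jun proteins pair with one another or with Fos proteins, Fos proteins need a Jun partner, and the dimers bind the palindromic element known as the TPA response element. ATF3 and ATF2 also pair with Jun proteins and favour the related cyclic AMP response element (CRE), whereas MAFF, a small MAF protein without an activation domain, pairs mainly with CNC-type factors such as NFE2L2 and can pair with Fos proteins. Fos, Fosb, Jun, Junb and Atf3 are known as immediate-early or stress-response genes: mitogens and stress kinases switch them on within minutes through SRF, CREB and JUN itself, and their messengers are short-lived. In ES cells AP-1 is best known for its part in leaving the pluripotent state and in extraembryonic differentiation.

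Promoter sequence was known for 8 of the 9 genes (RefSeq, GRCm38.p6), in windows from 250 bases before to 50 after the start site. The 80 bases before the start are printed to show the letters of elements that AP-1 and CREB proteins are known to bind. They are given for the members with a window that were lower in both KO libraries, and for Junb, which differed little. Jund and the Maff start at 79346621, neither with such letters in its window, are not printed. Capitals mark TGACG or CGTCA, which is one arm of the CRE, and TGACATCA, a one-letter variant of it. Where both arms meet they form the whole CRE, TGACGTCA.
Jun, chr4:95052223-95052302, minus strand: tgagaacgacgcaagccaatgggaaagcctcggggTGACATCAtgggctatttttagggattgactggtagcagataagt
Fos, chr12:85473810-85473889, plus strand: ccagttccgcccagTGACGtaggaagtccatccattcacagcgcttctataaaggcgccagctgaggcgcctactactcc
Fosb, chr7:19310046-19310125, minus strand: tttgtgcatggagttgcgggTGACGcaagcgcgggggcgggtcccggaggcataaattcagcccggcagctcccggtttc
Atf3, chr1:191183334-191183413, minus strand: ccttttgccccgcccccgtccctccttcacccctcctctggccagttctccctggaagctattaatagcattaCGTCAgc
Maff, start at 79347520, chr15:79347440-79347519, plus strand: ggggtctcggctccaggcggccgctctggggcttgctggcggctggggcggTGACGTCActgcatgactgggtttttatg
Maff, start at 79348402, chr15:79348322-79348401, plus strand: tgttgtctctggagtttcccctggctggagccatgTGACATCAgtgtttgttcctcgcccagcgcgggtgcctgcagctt
Fosl2, chr5:32136392-32136471, plus strand: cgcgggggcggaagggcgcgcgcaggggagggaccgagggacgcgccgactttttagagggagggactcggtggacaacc
Junb, chr8:84978749-84978828, minus strand: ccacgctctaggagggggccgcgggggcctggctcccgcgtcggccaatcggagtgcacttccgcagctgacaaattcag

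On either strand, TGACATCA begins 45 bases before the start in Jun and again at the Maff start at 79348402, against 1.89% of the 15258 windows of tested genes that hold it. The whole CRE lies 29 bases before the Maff start at 79347520, against 2.88% of those windows. One arm of the CRE was in the windows of Fos, Fosb, Atf3 and Junb and in both of these Maff windows, against 28.9% of windows, and a window with the whole CRE holds the arm by definition. In Junb it lies outside the bases printed. TGANTCA, the letters of the TPA response element, and the CArG box of SRF were in none of the 10 windows of these 8 genes, against 5.26% and 1.31% of windows. These matches are letters, not shown binding sites. Sequence beyond the windows was not searched, so an element absent from a window may lie farther from the start. CpG steps numbered 32 in the 300-base window of Fosl2, 27 in Atf3, 25 in Fosb, 21 in Junb, 20 in Fos and 15 in Jun, with a median of 19 over windows of tested genes. The Maff windows had 5, 21 and 14. Jund had 3. The RefSeq start differs from the gene start in GENCODE M21 for several members: it lies 34706 bases inside the Atf3 gene, 671 bases inside Fosl2 and 1210 bases before Jund. The Maff starts at 79347520 and 79348402 lie 899 and 1781 bases inside the gene. The Maff start that matches GENCODE, at 79346621, had no CRE, no arm of it and no TGACATCA in its window. All windows thus cover only the RefSeq starts. The study's title concerns unmethylated CpG islands, and neither methylation nor KAT6A binding was analysed here.

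The libraries held 27494041 to 37354623 counts, and values are CPM, the usual depth-scaled count, on library sizes adjusted with TMM. Kat6a itself, which the edit targeted, stood at 145 and 143 CPM in controls 1 and 2, at 242 CPM under the label KO 1 and at 86.4 CPM under the label KO 2, so its RNA does not check the labels, and every direction given here depends on the labels being right. The 10 ES cell markers listed were abundant in every library, the lowest at 196 CPM, and 3 of them (Esrrb, Dppa5a and Tfcp2l1) were higher in the KO libraries in edgeR's test at an adjusted p under 0.05. Over all tested genes this test called 5.76% higher and 8.57% lower.

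Most AP-1 subunit transcripts were lower in the libraries labelled KO, and Junb and Jund were the exceptions. Both KO libraries lay below both controls for 7 of the 9 genes, against 32.8% of all tested genes. They lay above both controls for none, against 31.5% of all tested genes. The median log2 fold change of the 9 (KO over control) was -1.11, against 0.01 over all tested genes, whose interquartile range ran from -0.29 to 0.26. Fosl2, Jun, Atf3 and Maff, 4 of the 9, met the call rule (adjusted p under 0.05 in edgeR's quasi-likelihood test), all of them lower, against the 8.57% of all tested genes called lower. Of these, Fosl2, Jun and Atf3 were also at least 2-fold lower, as were 2.57% of all tested genes. Atf3 did not meet the rule in DESeq2, without the low-count filter or with the replicate number alone as a block. With 1 library left out, the median log2 fold change of the 9 ranged from -1.17 to -0.79. Since the genes were chosen with this comparison known, nothing is read from these counts, and they are no test of the members. RNA from a bulk culture cannot tell fewer cells that express a gene from less RNA per cell.

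**Figure D1:**
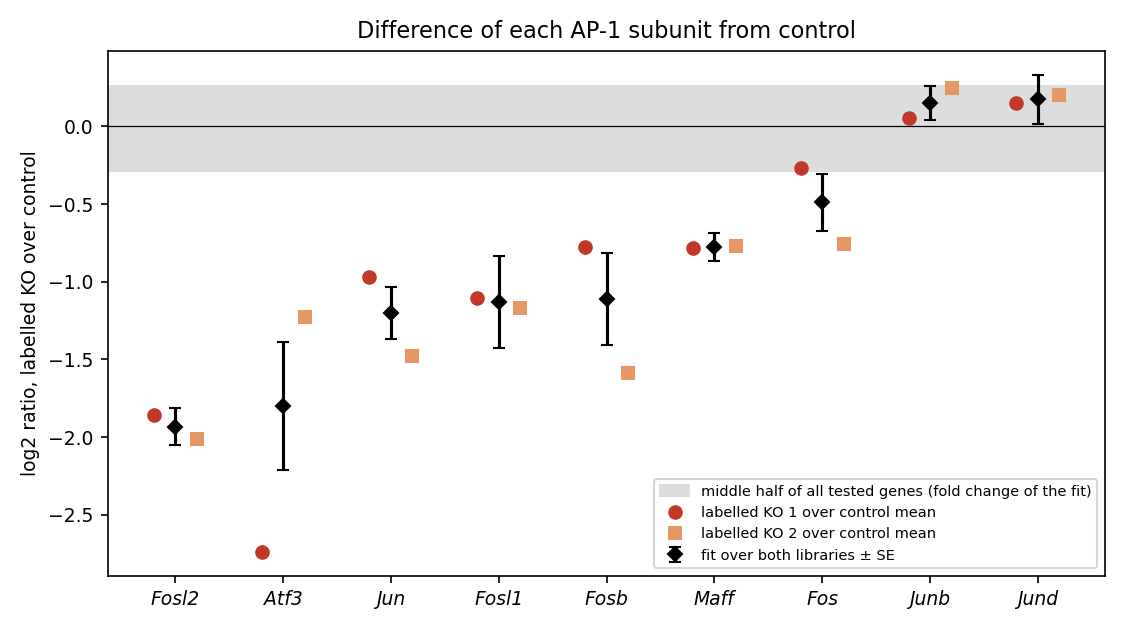
Log2 ratio of KO over control (vertical axis) for each AP-1 subunit, ordered by the fitted value. Diamonds are the edgeR fold change ± SE over both KO libraries, circles and squares are the libraries labelled KO 1 and KO 2 over the control mean, and the grey band holds the interquartile range of all tested genes. From Fosl2 at -1.93 the values run to Jund at 0.17, and the KO libraries lie farthest apart for Atf3.

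Among the Fos genes, Fosl2 showed the largest difference and Fos the smallest. Fosl2, which encodes FRA2, had 34.2 and 34.6 CPM in the controls and 9.46 and 8.51 CPM in the libraries labelled KO 1 and KO 2. The KO libraries were close to each other and far below the controls, at 0.275 and 0.248 times the control mean, and the log2 fold change was -1.93 ± 0.12 (SE, n = 2 and 2). The gene lies on chromosome 5 at 32135801 to 32157842 (GRCm38, GENCODE M21).

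Fos, on chromosome 12 at 85473890 to 85477273, had 12.6 and 12.6 CPM in controls 1 and 2, against 10.4 CPM (labelled KO 1) and 7.46 CPM (labelled KO 2). It encodes the founding partner of Jun in AP-1. The KO libraries stood below the controls by unequal amounts, at 0.830 and 0.592 times the control mean, and the log2 fold change was -0.49 ± 0.19 (SE). With the library labelled KO 2 left out it was -0.27, and with that labelled KO 1 left out -0.76.

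Fosb and Fosl1 were the least abundant subunits. Fosb, on chromosome 7 at 19302696 to 19310051, had 3.80 and 3.19 CPM in the controls and 2.04 and 1.16 CPM in the libraries labelled KO 1 and KO 2, from 135, 118, 62 and 32 counts. Its log2 fold change was -1.11 ± 0.30 (SE), and it had the same order of the KO libraries as Fos. Fosl1, which encodes FRA1, had 1.32 and 1.78 CPM in the controls and 0.723 and 0.691 CPM in the KO libraries, from 47, 66, 22 and 19 counts. Its log2 fold change was -1.13 ± 0.29 (SE). The controls differed by 1.35 times and the KO libraries by 1.05 times, so that here the controls set most of the spread. Fosl1 (chromosome 19, 5447547 to 5455946) shares 1163 of its 2033 exonic bases with Ccdc85b on the opposite strand, which had 189 to 300 counts, and with no strand setting stated for the counting, the value of Fosl1 is uncertain.

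Of the Jun genes, Jun was lower, and the groups of Junb and Jund overlapped. Jun, an intronless gene on chromosome 4 at 95049034 to 95052222, had 61.5 and 60.8 CPM in controls 1 and 2, against 31.2 CPM (labelled KO 1) and 21.9 CPM (labelled KO 2). The KO libraries held 0.511 and 0.358 times the control mean, and the log2 fold change was -1.20 ± 0.17 (SE). Like Fos and Fosb, Jun was lower in the library labelled KO 2 than in the other KO library.

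Junb, which can restrain as well as replace Jun in the dimer, had 50.9 and 56.5 CPM in the controls and 55.6 and 63.8 CPM in the KO libraries. The groups overlapped, and the log2 fold change was 0.15 ± 0.11 (SE). Jund, the member usually expressed steadily in resting cells, had 15.3 and 20.2 CPM in the controls and 19.6 and 20.3 CPM in the KO libraries, a log2 fold change of 0.17 ± 0.16 (SE), and its groups overlapped too. Both genes lie on chromosome 8, Junb at 84974484 to 84978718 and Jund at 70698949 to 70700616, and both have GC-rich transcripts (62.6% and 67.1% GC). Tested genes with at least 60% transcript GC had a median log2 fold change of 0.31, those under 50% of -0.12. With an offset for GC content the sign of both genes turned, to -0.15 for Junb and -0.24 for Jund, while Jun was at -1.31. Jund was at -0.02 without control 1 and at 0.39 without control 2. Junb shares 173 exonic bases with Prdx2 on the opposite strand, an abundant gene with 3522 to 4049 counts per library.

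Atf3 and Maff, the subunits outside the Fos and Jun families, were both lower, with opposite regularity. Atf3, a stress-induced repressor and activator on chromosome 1 at 191170296 to 191218039, had 39.2 and 39.3 CPM in controls 1 and 2, against 5.88 CPM (labelled KO 1) and 16.8 CPM (labelled KO 2). The controls were nearly equal, whereas the KO libraries differed by 2.85 times, at 0.150 and 0.427 times the control mean. The log2 fold change of -1.80 ± 0.41 (SE) became -2.74 without the library labelled KO 2 and -1.23 without that labelled KO 1. Maff, on chromosome 15 at 79346621 to 79359076, had 73.3 and 69.5 CPM in the controls and 41.5 and 41.8 CPM in the KO libraries. Its KO libraries differed by 1.01 times, and the log2 fold change was -0.78 ± 0.09 (SE), the smallest error among the 9.

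**Figure D2:**
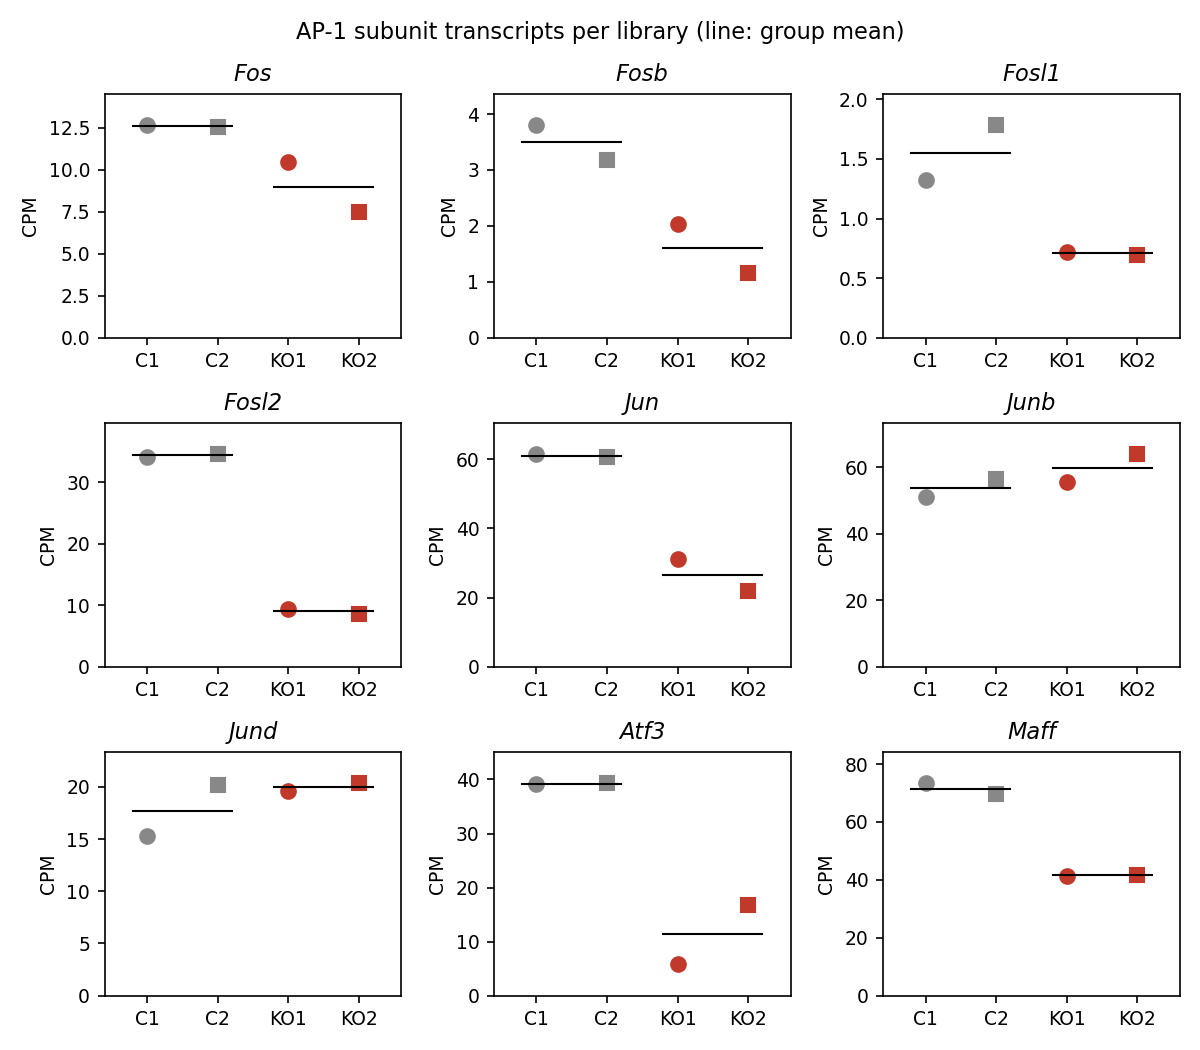
Level of each AP-1 subunit in CPM (vertical axes, each starting at 0) in control 1 (C1), control 2 (C2) and the libraries labelled KO 1 and KO 2, with a line at each group's mean. Fosl2 and Maff have tight pairs in both groups, Atf3 has 5.88 and 16.8 CPM in the KO libraries, and the groups of Junb and Jund overlap.

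The KO libraries were thus not ordered alike for all subunits. Of the 9 genes, 4 were lower in the library labelled KO 1: Atf3, Junb, Jund (by 1.03 times) and Maff (by 1.01 times). The other 5 were lower in that labelled KO 2: Fos, Fosb, Fosl1 (by 1.05 times), Fosl2 and Jun. Markers of primitive endoderm, an extraembryonic lineage that arises spontaneously in serum cultures of ES cells, differed between the libraries as well. All 12 listed were lower in both KO libraries than in both controls, against 32.8% of all tested genes. In edgeR's test 9 of them were lower at an adjusted p under 0.05, against 8.57% of all tested genes. All 12 were lower in the library labelled KO 1 than in that labelled KO 2. Their summed level was 4550 and 4348 CPM in controls 1 and 2, against 1098 CPM (labelled KO 1) and 2075 CPM (labelled KO 2). Gata6, the defining regulator of the lineage, had 34.7 and 34.7 CPM in the controls and 6.21 and 12.0 CPM in the KO libraries. Within the KO pair Atf3, Junb, Jund and, by 1.01 times, Maff had the order of these markers. Fos, Fosb, Fosl1, Fosl2 and Jun had the opposite order. The KO libraries were nearly level for Jund, Maff and Fosl1, so their order is uncertain.

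Trophoblast markers summed to 281 and 282 CPM in the controls and 108 and 164 CPM in the KO libraries. Of 11 tested, 6 were called lower, against 8.57% of all tested genes. These 6 were Hand1, Plac1, Gata3, Krt8, Krt7 and Krt18. Krt8, Krt18 and Tfap2c gave most of that sum. Cdx2 and Elf5, which define the lineage, were at most 0.405 CPM in every library, near the lower end of detection. Markers of fibroblasts and feeder cells summed to 30.3 to 39.8 CPM, none of the 7 tested was called by edgeR (1 at an unadjusted p under 0.05, none in DESeq2 or limma-voom), and Lum had no count in any library. The part of these other cell types in the AP-1 values was not tested.

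**Figure D3:**
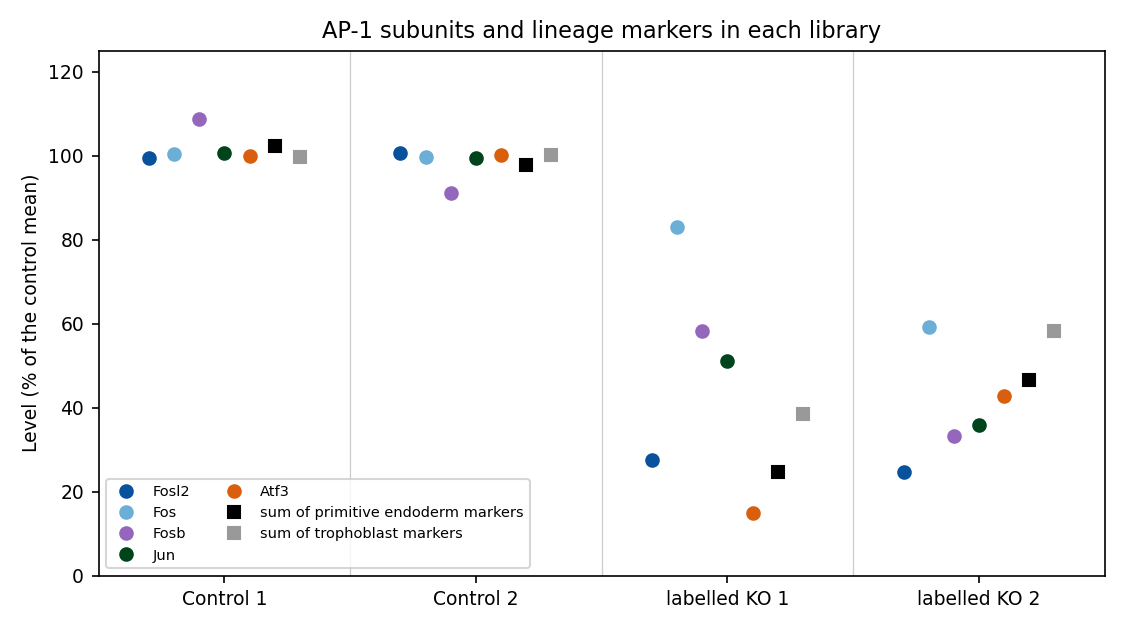
Level as a percentage of the control mean (vertical axis) in each library for 5 AP-1 subunits (circles) and for the summed primitive endoderm and trophoblast markers (squares). In the library labelled KO 1 Atf3 lies lowest and Fos highest, and in that labelled KO 2 Fosl2 lies lowest.

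The make-up of the family differed between the groups, with less Fos-family and Atf3 RNA beside Junb and Jund. The Fos genes together had 51.9 and 52.1 CPM in the controls and 22.7 and 17.8 CPM in the KO libraries, which is 38.9% of the control mean. In the controls Fosl2, which has the most exonic bases of the 9 genes, gave 34.2 and 34.6 CPM of this sum. Fos alone was at 71.2% of the control level in the fit. Per kilobase of exon the Fos genes summed to 10.2 and 10.3 in the controls and to 6.10 and 4.58 in the KO libraries. The Jun genes together had 128 and 137 CPM in the controls and 106 and 106 CPM in the KO libraries, 80.2% of the control mean. The ratio of Fos to Jun family reads was 0.407 and 0.379 in the controls, against 0.213 and 0.168 in the KO libraries, so the KO values lay below both controls. Per kilobase of exon the ratio was 0.201 and 0.185 in the controls, against 0.133 and 0.0978 in the KO libraries.

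Within the Jun family, Jun was lower relative to Junb in the KO libraries. Jun had 1.21 and 1.07 times the reads of Junb in the controls, and 0.561 and 0.343 times in the KO libraries. Per kilobase of exon, Junb was above Jun in every library, with ratios of 0.872 and 0.776 in the controls and of 0.405 and 0.248 for KO 1 and KO 2. As a share of all reads on the 9 genes, Junb held 17.4% (95% exact binomial interval 16.7 to 18.2) and 18.9% (18.2 to 19.7) in the controls. It held 31.5% (30.3 to 32.8) and 35.0% (33.7 to 36.3) in the libraries labelled KO 1 and KO 2. Atf3 held 13.4% and 13.2% in the controls, against 3.33% and 9.19% in the KO libraries. Maff held 22.9% to 25.1% of reads in every library, and its groups overlapped. Per kilobase of exon Maff held 26.4% and 24.1% in the controls, against 22.7% and 21.4% in the KO libraries, without overlap. The binomial intervals cover counting error only.

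**Figure D4:**
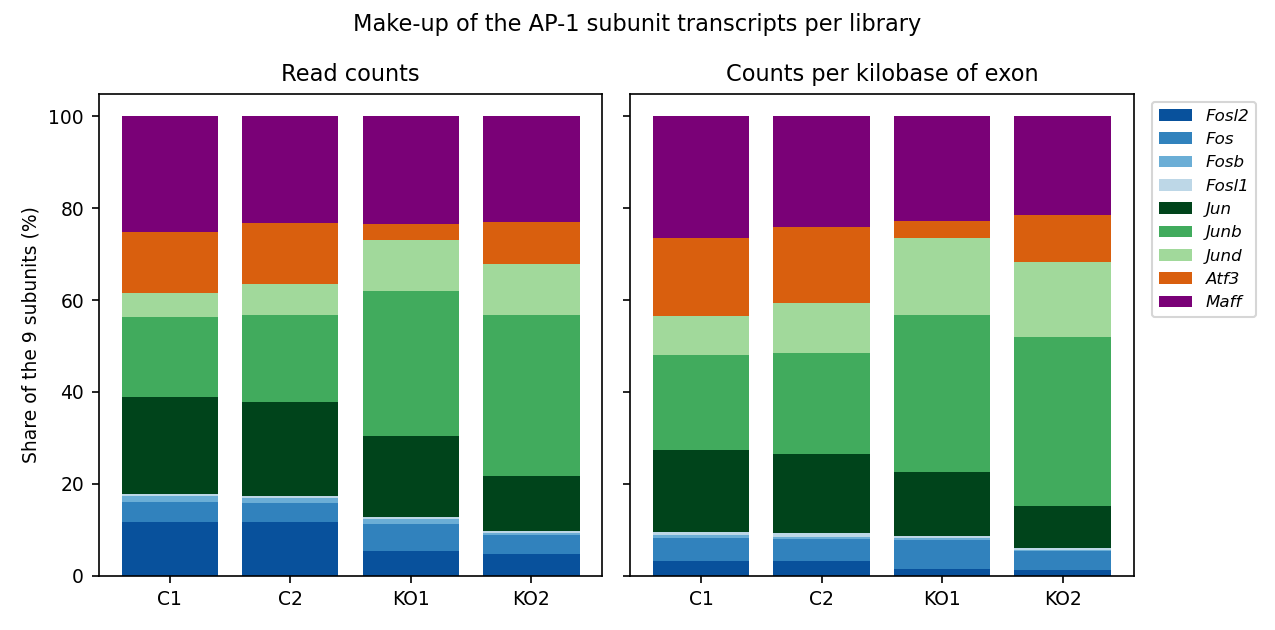
Share of each AP-1 subunit in the summed reads of the 9 genes (left) and in the summed reads per kilobase of exon (right), in percent, for control 1 (C1), control 2 (C2) and the libraries labelled KO 1 and KO 2. Junb, in mid green, widens from 17.4% and 18.9% of reads in the controls to 31.5% and 35.0% in the KO libraries.

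Levels of different genes were compared per kilobase of annotated exon, since the genes differ in exonic length. It ran from 1668 bases (Jund) to 9680 bases (Fosl2). In the controls Maff was highest at 27.5 ± 1.04 CPM per kilobase (SD, n = 2), followed by Junb at 23.3 ± 1.74, Jun at 19.2 ± 0.151, Atf3 at 18.2 ± 0.0188, Jund at 10.6 ± 2.08, Fos at 5.35 ± 0.0241 and Fosl2 at 3.55 ± 0.0270. Fosl1 at 0.763 ± 0.160 and Fosb at 0.559 ± 0.0694 came last. No neighbours in this order overlapped between libraries. In the KO libraries Junb was highest at 26.0 ± 2.51 CPM per kilobase (SD, n = 2), then Maff at 16.1 ± 0.0816, Jund at 12.0 ± 0.291, Jun at 8.33 ± 2.07, Atf3 at 5.26 ± 3.57 and Fos at 3.81 ± 0.899. Jun and Atf3 overlapped, and so did Atf3 and Fos. Fosl2 at 0.928 ± 0.0694, Fosl1 at 0.348 ± 0.0110 and Fosb at 0.256 ± 0.0989 were lowest and did not overlap.

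The subunit genes share a low number of exons, which the choice of genes did not use. All 3 Jun genes have a single exon, against 2.60% of 14292 tested protein-coding genes, and the others have 3 or 4 exons in their longest coding transcript, against a median of 9. In length they differ: the median exonic length of the 9 was 2352 bases, against 4356 over all, but Fosl2 had 9680 and Fosb 6243 exonic bases, and Atf3 spans 47744 bases of the genome. The pentamer ATTTA, the core of the AU-rich elements that mark short-lived messengers, occurs in the 3′ UTR of all 9, against 68.2% of genes. At least 3 copies were found in Fos, Fosl2, Jun, Atf3 and Maff, against 36.7% of genes. Fosl2 had 8 copies in a 3′ UTR of 4653 bases, Fos, Jun and Maff had 4 each, Atf3 had 3 and Junb had 2. Fosb, Fosl1 and Jund had 1 each. The number of copies grows with UTR length and is a description only.

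The authors' deposited table gives smaller changes for Atf3, Fosl1 and Fosb. Its log2 fold changes were -1.77 for Fosl2, -1.09 for Jun, -0.73 for Maff and -0.42 for Fos, near the values above. For Atf3 the authors' deposited table gives -0.70, where the refit here gives -1.80, for Fosl1 it gives -0.58 against -1.13, and for Fosb -0.74 against -1.11. Over the 653 genes called here with at least 2-fold change, the ratio of the authors' deposited value to the refit had a median of 0.686, and all had the same sign. Shrinkage of the authors' fold changes is not stated in the sources used here.

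Other bZIP genes related to AP-1 differed little. Of 18 listed, 14 were tested, 1 was called higher and 1 lower, against 5.76% and 8.57% of all tested genes, with a median log2 fold change of -0.13. Mafa, a large MAF factor best known from pancreatic beta cells, rose from 1.80 and 1.86 CPM to 4.73 and 4.15 CPM (log2 fold change 1.28 ± 0.20 SE, edgeR adjusted p = 0.0151). The call ended without control 1 (edgeR adjusted p = 0.056). Nfe2l1, which encodes a CNC partner of small MAF proteins, fell from 502 and 493 CPM to 320 and 337 CPM (-0.60 ± 0.08 SE, edgeR adjusted p = 0.0116). It lies on chromosome 11, where the median log2 fold change over 1322 tested genes was -0.46 and 40.5% were called lower. The small MAF genes Mafg and Mafk, the closest relatives of Maff, had log2 fold changes of -0.17 and -0.44, and Atf2 and Jdp2, which encode Jun partners, had -0.20 and 0.01. None of these 4 passed the test.

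Of the kinases and SRF-linked factors that act upstream of AP-1, most did not pass. Among 34 tested, 1 (2.94%) was called higher and 3 (8.82%) lower, against 5.76% and 8.57% of all tested genes, with a median log2 fold change of -0.05. Mapk9, which encodes the Jun kinase JNK2, fell from 106 and 104 CPM to 65.3 and 61.4 CPM (log2 fold change -0.73 ± 0.08 SE, edgeR adjusted p = 0.0093). Map2k4, which encodes a kinase that activates JNK, fell by 0.65 on the log2 scale (edgeR adjusted p = 0.0118), and Map2k6, which encodes an activator of p38, fell by 0.59 (edgeR adjusted p = 0.0465). All 3 lie on chromosome 11. Other stress kinase genes of the list did not pass, among them Mapk8 (log2 fold change -0.40), Map2k3 (-0.23), Map2k7 (0.15) and Mapk14 (0.12). The call of Map2k6 ended without control 1 or control 2 (edgeR adjusted p = 0.318 and 0.157), with upper-quartile scaling (0.053) and with the GC-content offset (0.068). Srf, the factor that binds the CArG box, rose from 86.8 and 100 CPM to 123 and 122 CPM (0.39 ± 0.10 SE, edgeR adjusted p = 0.0455). The call of Srf ended without control 1 or control 2 (edgeR adjusted p = 0.515 and 0.147) and with the GC-content offset, where its log2 fold change was 0.05.

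Among genes that shut the pathway off or turn over its products, 4 dual-specificity phosphatase genes fell. Of 25 tested these 4 (16%) were called lower, against 8.57% of all tested genes, with a median log2 fold change of -0.24, and none higher in edgeR, at an unadjusted p under 0.05, in DESeq2 or in limma-voom. Dusp16, a JNK phosphatase, fell from 185 and 164 CPM to 90.5 and 73.8 CPM (log2 fold change -1.09 ± 0.12 SE, edgeR adjusted p = 0.0093). Dusp10, which acts on JNK and p38, fell by 1.45 on the log2 scale, and Dusp8, of the same class, by 1.17. Dusp1, itself an immediate-early gene, fell by 0.62 (edgeR adjusted p = 0.0312), and its call ended without control 1 or control 2 (edgeR adjusted p = 0.223 and 0.080). The genes of proteins that destroy Jun protein or AU-rich messengers did not pass, among them Fbxw7 (log2 fold change -0.04), Itch (-0.29), Cop1 (0.02) and Zfp36 (-0.24).

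Other immediate-early genes included several that fell. Of 21 tested, 10 (47.6%) were called lower and 1 (4.76%) higher, against 8.57% and 5.76% of all tested genes, with a median log2 fold change of -0.42. Ccn2, which encodes a matrix protein that responds to SRF and YAP, fell from 198 and 198 CPM to 82.6 and 90.1 CPM (log2 fold change -1.20 ± 0.09 SE, edgeR adjusted p = 0.0050). Klf6, a zinc finger factor, fell by 0.74 on the log2 scale and Nr4a3, a nuclear receptor, by 3.35. Egr1, which serum induces together with Fos, fell from 191 and 191 CPM to 135 and 102 CPM (-0.68 ± 0.14 SE, edgeR adjusted p = 0.0269). It was named after its value was seen. Klf10 rose by 0.41 (edgeR adjusted p = 0.0306), and this call ended without control 1 or control 2 (edgeR adjusted p = 0.408 and 0.160). Ier2 and Klf2 were at 0.37 and 0.51 and did not pass.

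Genes reported elsewhere as targets of AP-1 moved in both directions. Of 56 listed, 40 were tested, with a median log2 fold change of -0.26. Of these, 11 (27.5%) were called lower and 3 (7.5%) higher, against 8.57% and 5.76% of all tested genes. Hbegf, which encodes an EGF receptor ligand, fell from 109 and 107 CPM to 48.1 and 49.9 CPM (log2 fold change -1.14 ± 0.08 SE, edgeR adjusted p = 0.0050). F3, the tissue factor gene, fell from 136 and 134 CPM to 26.5 and 37.9 CPM (-2.07 ± 0.17 SE, edgeR adjusted p = 0.0050), and Hmox1, the heme oxygenase gene, fell by 1.09 on the log2 scale. Cd44, an adhesion receptor, and Csf1, a macrophage growth factor, both fell by 2.00, and Anxa1 fell by 1.78. These last 3 were named after their values were seen. Against this direction Spp1, the osteopontin gene, rose by 0.76, Itga5, an integrin subunit, by 0.83 and Mmp14, a membrane metalloproteinase, by 0.74. The call of Mmp14 ended without control 1 or control 2 (edgeR adjusted p = 0.143 and 0.066). The classic collagenase and stromelysin targets Mmp3, Mmp10 and Mmp13 had no count in any library, and Ccnd1, the cyclin D1 gene, did not pass (-0.20).

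**Figure D5:**
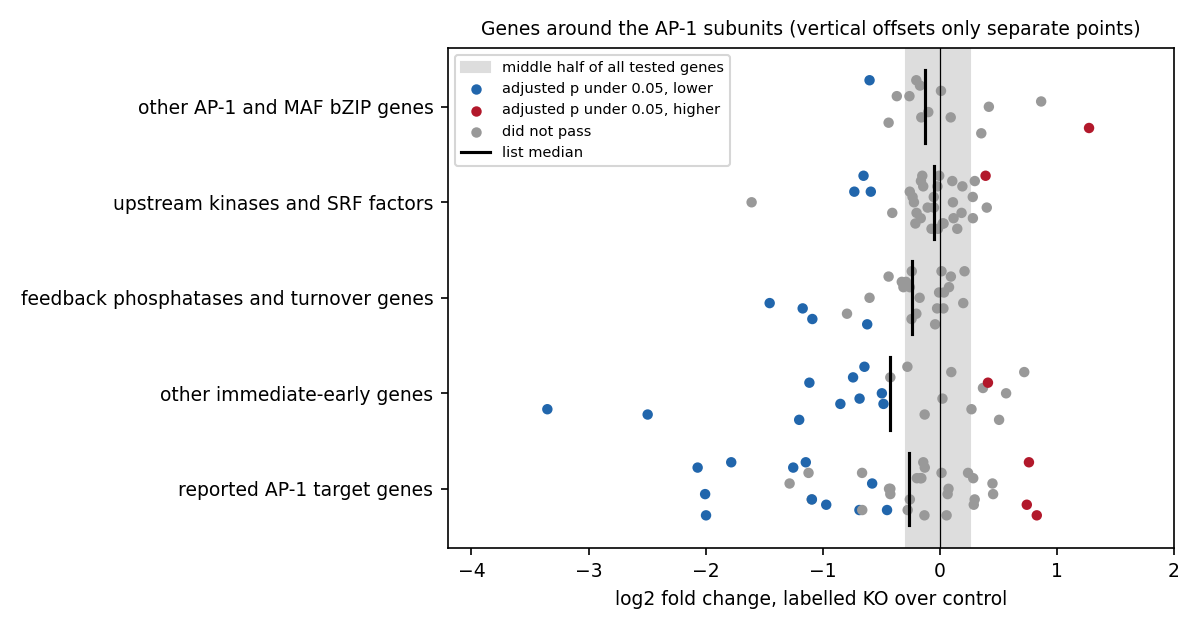
Log2 fold change, KO over control (horizontal axis), of each tested gene in 5 lists around the AP-1 subunits, with blue for genes called lower, red for genes called higher, a black line at the list median and a grey band for the interquartile range of all tested genes. Genes called lower numbered 10 of 21 among other immediate-early genes and 11 of 40 among reported targets, against 8.57% of all tested genes.

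The genes with the pattern nearest to the mean of the 9 subunits over the 4 libraries were Myo5b, C1d, Man1a, Rps6kb1 and Rabep1. Likeness was the distance between log2 CPM values centred on each gene's mean, among 10585 genes with at least 5 CPM, and it ran from 0.039 for Myo5b, a myosin motor gene, to 0.068 for Rabep1, which encodes an endosomal effector. C1d, Rps6kb1 and Rabep1 lie on chromosome 11. The calls of Myo5b (without control 1 or control 2), Man1a (without control 2) and C1d (with the GC-content offset) ended in edgeR's test. Likeness over 4 libraries is a description, and several of the subunits themselves lay far from the mean profile. Atf3 had the largest distance at 1.499, followed by Jund at 1.098, Junb at 1.049 and Fosl2 at 1.028. Maff was the nearest subunit at 0.151.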

How the data were processed

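Gene counts came from 4 deposited tables of raw read counts per gene symbol, 1 per library. Per the submitters' processing notes the authors used featureCounts and DESeq2. The sources used here name no aligner, genome build, annotation or strand setting. Per the labels, libraries were made with a stranded mRNA kit. The authors' deposited comparison gives log2 fold changes without a header; that column was identified from its values. The deposited normalized values were not used here.

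Counts were analysed with edgeR 4.0.16 in R 4.3.3: filterByExpr by group (16112 of 41543 symbols), TMM scaling (0.992 to 1.01), a robust quasi-likelihood test on group alone, Benjamini-Hochberg adjustment over all tested genes and a threshold of 0.05. Each SE was derived by dividing the log2 fold change by the root of F. The procedure was tested on simulated data. Alternatives were other scalings and filters, DESeq2 1.42.0, limma-voom (limma 3.58.1), a GC-content offset (lowess span 0.3), the replicate number as a block, and each library left out. Lengths, positions and 3′ UTRs came from GENCODE M21 (GRCm38), which may not be the authors' annotation.

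The members, the gene lists and the tests were chosen with earlier results of these data known, and the CRE arm was searched after the promoter windows had been read. From each list up to 3 called genes per direction with the smallest adjusted p were named, all where 5 or fewer were called, or the most abundant gene where none was. Genes of the lists that did not pass, the lineage markers and the genes marked in the text were named after their values were seen. Tables used pandas 2.3.3 under Python 3.11.15, exact binomial intervals scipy 1.17.1, and plots matplotlib 3.10.9.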

Additional observations from a re-analysis of the deposited data

How the results depend on the processing

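Calls depended most on single libraries. Leaving out 1 library moved the genes called higher from 928 to between 254 and 4020 and those called lower from 1381 to between 648 and 4400, with fewer calls without control 1 or 2 and more without the library labelled KO 1 or KO 2. The corresponding ranges were 0 to 3 higher and 1 to 5 lower for other bZIP genes, 0 to 9 and 2 to 11 for kinases and SRF factors, 0 to 3 and 3 to 14 for feedback genes, 0 to 5 and 7 to 12 for immediate-early genes, and 2 to 9 and 9 to 25 for reported targets. The median log2 fold change of the 9 subunits ranged from -1.17 to -0.79, the latter without the library labelled KO 2.

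With the replicate number as a block, 1613 genes were called higher and 2147 lower, 2 other bZIP genes lower, 5 kinases lower, 3 immediate-early genes higher and 6 reported targets higher. The numbers are shared labels, not a stated pairing (correlation of same-numbered deviations 0.11, 2 pairs). With the GC-content offset 3 other bZIP genes were lower and 0 kinases or SRF factors higher, and with block and offset 2 and 0. Without the low-count filter 5 kinases were lower and 2 immediate-early genes higher, and DESeq2 called 3 immediate-early genes higher. The cause of these differences was not tested.

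Per kilobase, the Fos family share was 9.38% in controls and 7.36% in KO libraries, and the Jun family share 48.7% and 63.5%. That of Atf3 was 16.7% and 7.11%, and that of Maff 25.3% and 22.0%. Depth limits Fosb and Fosl1, with 19 to 135 counts.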
